A study of Homo sapiens with 4 samples.

Results

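Liver X receptors (LXRs) and genes of lipid transport and handling were followed in RNA-seq libraries of MV4-11 cells. MV4-11 is a human acute myeloid leukemia (AML) cell line, studied here after knockdown of the nuclear histone chaperone ANP32B. The 10 genes looked for were the LXR receptors NR1H2 and NR1H3, their partner RXRA, the transporters ABCA1, ABCA7 and ABCG1, the ubiquitin ligase MYLIP, the apolipoprotein APOE, the lipid droplet protein PLIN2 and the fatty acid receptor CD36. They were selected on gene symbol with their measured levels in these groups and the fold changes between them already known, and 8 of the 10 had a row among the 18885 genes listed. ABCA1 and ABCG1 had no row and their levels were not analysed here. The NC group held 2 libraries of MV4-11 cells whose labels give no shRNA, and which the study's text names sh-NC. The sh-ANP32B group held 2 libraries of the same line carrying an shRNA against ANP32B, delivered by lentivirus and selected with puromycin. If the NC cells carried no hairpin, any effect of transduction and selection cannot be told apart from the loss of ANP32B. The hairpin used for these libraries is not named in the text, the knockdown columns carry the mark S3, and neither labels nor text say whether the cells were of 1 clone. Nothing says that the 2 libraries of a group came from separate cultures, so every p-value measures only the spread between these libraries.

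LXRs are nuclear receptors that sense oxysterols and desmosterol, and they bind DNA as heterodimers with retinoid X receptors such as RXRA. In macrophages, ligand-bound LXR switches on the export of cholesterol through ABCA1 and ABCG1 to acceptors such as APOE. It also switches on MYLIP, also known as IDOL, which marks lipoprotein receptors for degradation, so that uptake falls as export rises. ABCA7 is a close relative of ABCA1 that moves phospholipids and is linked to phagocytosis, and it has been tied to the sterol-sensing SREBP2 pathway. CD36 takes up fatty acids and oxidized lipoproteins and, like PLIN2, is a known target of the PPAR receptors.

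LXR/RXR heterodimers bind a direct repeat of the half-site AGGTCA with a gap of 4 bases (DR4), and PPAR/RXR heterodimers bind the same half-site repeated with a gap of 1 base (DR1). Both repeats, allowing 2 mismatches in the 12 half-site bases, were searched on both strands of RefSeq promoter windows, from 250 bases before to 50 bases after each start site (build GRCh38.p14). The E-box CACGTG and the PU.1-type string GAGGAAGT were searched without mismatches. Of the 10 genes, 9 had a window, and ABCG1 had no entry. The matches to the DR4 and the DR1 are shown 5′ to 3′ with the motif bases in capitals, as the repeats that these receptors bind, and with them the E-box of PLIN2 as an example of the other motifs. The first is the DR4 of ABCA1, 69 to 54 bases before the start (chr9:104928202-104928231, plus strand), shown because it is the well-known LXR element. The second is the DR1 of CD36, 147 to 135 bases before one of its start sites (chr7:80638362-80638388, minus strand). The third is the E-box of PLIN2, 69 to 64 bases before the start (chr9:19127549-19127568, minus strand).
ABCA1 DR4: agcgcagAGGTTActatCGGTCAaagcctg
CD36 DR1: tccaagtAAGTCAgAGGCCAgaaaaac
PLIN2 E-box: cgcgggtCACGTGctgcgga

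A DR4 was present in 2.34% of all 35116 windows, a DR1 in 2.97%, CACGTG in 7.26% and GAGGAAGT in 2.59%. ABCA1 was the only one of the 9 genes with a DR4, and RXRA joined it when 3 mismatches were allowed, a setting met by 18.6% of all windows. ABCA1 also held a CACGTG. The window of ABCA7, the gene with the largest difference in TPM among the 8 measured, held none of the 4 motifs. The part of that window that lies before the first annotated base of the gene is shown for this reason (chr19:1039857-1039996, plus strand). It is 140 bases long and 67.9% of its bases are G or C.
ABCA7 upstream: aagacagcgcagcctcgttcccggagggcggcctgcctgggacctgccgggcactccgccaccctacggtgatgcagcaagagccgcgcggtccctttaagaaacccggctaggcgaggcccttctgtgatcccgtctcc
These matches describe letters in a short window and show no binding.

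All levels are TPM, read density over gene length scaled to a common total per library, here 997271 to 998546 TPM. TPM keep no read numbers, which leaves depth unknown and counting error without a value. ANP32B itself had 358 and 364 TPM in NC and 54.1 and 49.3 TPM in sh-ANP32B, which left 14.3% of the NC mean. Log2 fold changes are sh-ANP32B against NC on the scale of log2(TPM + 1), with a standard error (SE) from limma, a linear model that shares variance across genes. A call needed an adjusted p (Benjamini-Hochberg) under 0.05 together with a log2 fold change above 0.5 or under -0.5. By this rule 28.0% of the 16937 genes tested were called, 17.9% higher and 10.1% lower, and their median log2 fold change was 0.08. Under quantile normalization that median was -0.04, so changes of about 0.1 turn on the scaling. Because the fold changes of this contrast were known when the 8 genes were chosen, their values are given as a description with no test.

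The receptors differed little between the groups. NR1H2 (LXR-beta, ENSG00000131408), the widely expressed LXR, occupies bases 50329653 to 50383388 of chromosome 19 (hg38). Its levels were 51.8 and 53.2 TPM in NC and 54.3 and 56.1 TPM in sh-ANP32B, a log2 fold change of 0.07 (SE 0.0534). The sh-ANP32B libraries were slightly higher without overlap, and the sign turned to -0.03 under median-of-ratios scaling. NR1H2 shares 1182 exonic bases with NAPSA on the opposite strand, and since the strand setting of the quantification is not given, reads there could belong to either gene. NAPSA had at most 1.87 TPM in any library. NR1H3 (LXR-alpha, ENSG00000025434), the LXR typical of macrophages and liver, lies on chromosome 11 from 47248300 to 47269033. It had 5.65 and 5.83 TPM in NC and 4.18 and 5.28 TPM in sh-ANP32B, a log2 fold change of -0.24 (SE 0.160). Both sh-ANP32B libraries lay below both NC libraries, but they differed from each other by more than the second of them differed from NC. The value was -0.10 without sh-ANP32B replicate 1 and -0.38 without sh-ANP32B replicate 2. NR1H3 shares 189 exonic bases with ACP2 on the opposite strand.

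RXRA (ENSG00000186350), the shared partner, lies on chromosome 9 from 134317098 to 134440585. It had 66.4 and 69.0 TPM in NC and 68.0 and 66.5 TPM in sh-ANP32B, a log2 fold change of -0.01 (SE 0.0503), and the libraries of the groups overlapped. NR1H2 was thus the main LXR transcript in every library, at 9.17 and 9.13 times the TPM of NR1H3 in NC and 13.0 and 10.6 times in sh-ANP32B.

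**Figure D1:**
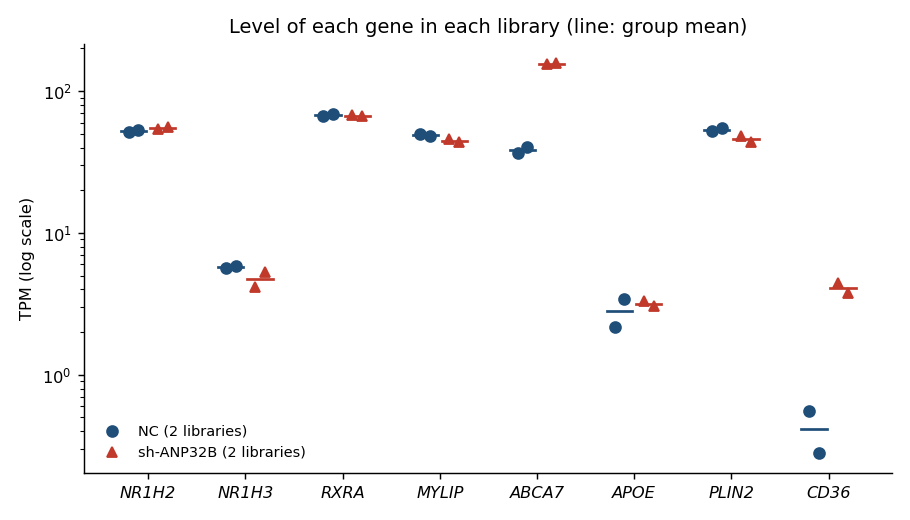
TPM of the 8 genes in each library on a log scale, with NC as circles, sh-ANP32B as triangles and a line at each group mean (n = 2). ABCA7 and CD36 lie far higher in sh-ANP32B than in NC, while the means of the other 6 genes differ by log2 fold changes between -0.24 and 0.16.

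Of the genes that LXR is known to switch on, MYLIP and APOE could be followed. MYLIP (ENSG00000007944, chromosome 6 from 16129086 to 16148248) had 49.8 and 48.2 TPM in NC and 45.8 and 43.9 TPM in sh-ANP32B, a log2 fold change of -0.12 (SE 0.0575). The sh-ANP32B libraries were lower without overlap, with means of 49.0 ± 1.18 TPM in NC and 44.9 ± 1.36 TPM in sh-ANP32B (SD, n = 2). APOE (ENSG00000130203, chromosome 19 from 44905791 to 44909393), the lipoprotein component made by macrophages, was low throughout. It had 2.17 and 3.42 TPM in NC and 3.30 and 3.05 TPM in sh-ANP32B, a log2 fold change of 0.16 (SE 0.220). Both sh-ANP32B values fell between the NC values, and the sign turned to -0.08 without NC replicate 1 and to -0.11 under quantile normalization.

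ABCA7 stood apart from the other genes measured. ABCA7 (ENSG00000064687) lies on chromosome 19 from 1039997 to 1065572. It had 36.6 and 40.3 TPM in NC and 156.6 and 156.8 TPM in sh-ANP32B, means of 38.5 ± 2.63 and 156.7 ± 0.147 TPM (SD, n = 2). The ratio of the means was 4.07, and the log2 fold change was 2.00 (SE 0.0605), or 1.92 above the median of all genes. Both sh-ANP32B libraries lay far above both NC libraries, and 111 of the 16937 genes tested had a higher log2 fold change. Across the alternatives run, the log2 fold change of ABCA7 ranged from 1.90 to 2.07.

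CD36 (ENSG00000135218), on chromosome 7 from 80369575 to 80679277, was near the lower end of the table in NC. It had 0.556 and 0.279 TPM in NC and 4.42 and 3.78 TPM in sh-ANP32B, and each sh-ANP32B library lay above each NC library. The ratio of the means was 9.83 and the log2 fold change was 1.85 (SE 0.217), a scale that understates the change of so low a gene. With a pseudocount of 0.1 in place of 1, the log2 fold change was 3.07. PLIN2 (ENSG00000147872), the coat protein of lipid droplets, lies on chromosome 9 from 19108375 to 19149290. It had 52.2 and 54.7 TPM in NC and 48.6 and 43.6 TPM in sh-ANP32B, a log2 fold change of -0.21 (SE 0.0718). Its sh-ANP32B libraries were lower without overlap and differed from each other by more than the NC libraries did.

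Thus 2 of the 8 genes, ABCA7 and CD36, passed the limits for a higher call, against 17.9% of all genes, and none passed those for a lower call, against 10.1%. The same 2 genes passed a fold limit of 1 on the log2 scale, beyond which 8.32% of all genes were called (6.71% higher and 1.61% lower). They were again the 2 past the limits with an unadjusted p, where 31.0% of all genes were called (20.2% higher and 10.8% lower). The median log2 fold change of the 8 was 0.03. The groups did not overlap for 6 of the 8, with 3 higher and 3 lower in sh-ANP32B. Across all genes tested, the same was true of 74.7%, with 42.5% higher and 32.1% lower. Since the choice of the genes could set these counts, nothing is read from them.

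The order of the levels differed between the groups in the places of ABCA7 and CD36 and in that of PLIN2, which lay above NR1H2 in NC and below it in sh-ANP32B. In NC it ran from RXRA (mean 67.7 TPM) through PLIN2, NR1H2, MYLIP, ABCA7, NR1H3 and APOE to CD36 (0.417 TPM). Among neighbours in this order, PLIN2 and NR1H2 overlapped between their libraries. In sh-ANP32B it ran from ABCA7 (156.7 TPM) through RXRA, NR1H2, PLIN2, MYLIP, NR1H3 and CD36 to APOE (3.18 TPM). Here PLIN2 overlapped with MYLIP, and NR1H3 with CD36. ABCA7 moved from 0.552 and 0.585 times the TPM of RXRA in the NC libraries to 2.30 and 2.36 times in the sh-ANP32B libraries.

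**Figure D2:**
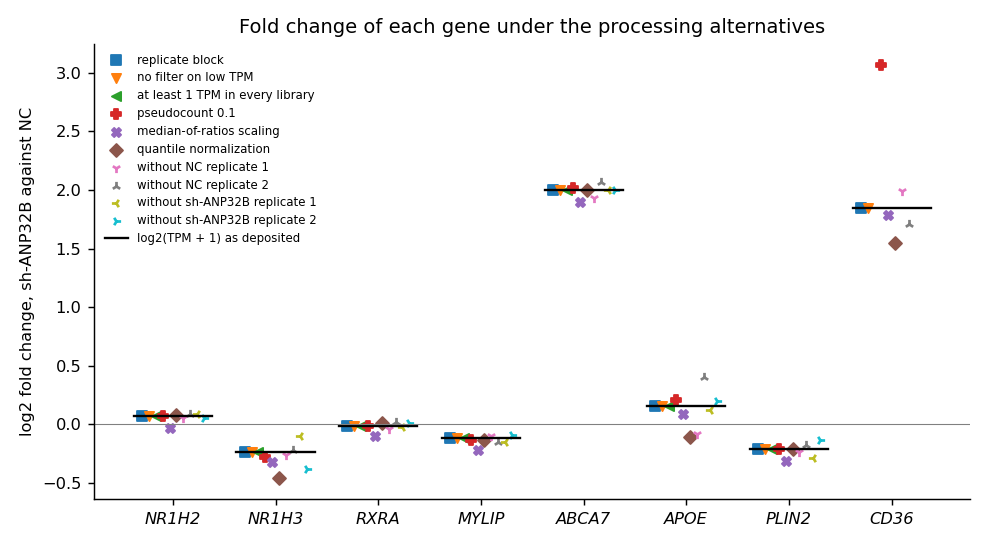
Log2 fold change (sh-ANP32B against NC) of the 8 genes as deposited, as a black line, and under each alternative, as symbols. ABCA7 stays between 1.90 and 2.07 and CD36 between 1.55 and 3.07, while NR1H2, RXRA and APOE have values on both sides of 0.

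The other genes of LXR signaling and lipid handling came from 8 lists of 117 genes, none of them among the 10 above. Of these, 76 had a row and 72 were tested, and limma called 25 higher (34.7%, against 17.9% of all genes) and 2 lower (2.78%, against 10.1%). Their median log2 fold change was 0.28, against 0.08 for all genes. The lists were drawn up with earlier results of these data known. Each list is small, and its counts below stand beside the same shares of all genes, 17.9% higher and 10.1% lower.

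The machinery of the receptors showed no calls. None of the 8 partners and coregulators tested passed, and the list had a median log2 fold change of 0.19. NCOA3, a coactivator of nuclear receptors, had 7.98 and 8.83 TPM in NC and 12.3 and 12.05 TPM in sh-ANP32B (limma adjusted p = 0.0165), just inside the fold limit. It passed that limit at 0.55 without NC replicate 2, and NCOA1 passed it at 0.59 without sh-ANP32B replicate 2. Among 25 other known LXR target genes, 12 were tested, 2 were called higher and none lower. FADS2, a fatty acid desaturase, had 164.5 and 161.5 TPM in NC and 236 and 239 TPM in sh-ANP32B (log2 fold change 0.54, limma adjusted p = 3.12e-04). SMPDL3A, a phosphodiesterase, had 3.65 and 3.65 TPM against 5.17 and 6.36 TPM (log2 fold change 0.53, limma adjusted p = 0.0421). Its call was lost without any 1 of the 4 libraries, at an adjusted p in limma from 0.0529 to 0.183, and under both scalings, median-of-ratios (0.0655) and quantile (0.165), and that of FADS2 fell inside the fold limit at 0.44 under median-of-ratios scaling. SREBF1, the lipogenic factor that LXR is best known to induce, had 195 and 200 TPM in NC and 190 and 197 TPM in sh-ANP32B (log2 fold change -0.03, limma adjusted p = 0.622). Phospholipid transfer protein, PLTP, had a log2 fold change of 0.14 (limma adjusted p = 0.0398). LPCAT3, which remodels phospholipids, had one of 0.07 (limma adjusted p = 0.624). Further targets not called included EEPD1 (0.37) and FADS1 (0.30) on the higher side, and RARA (-0.27) and MERTK (-0.26) on the lower. The median over the 12 tested was 0.11.

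Among the 10 genes that make or remove LXR ligands, 5 were tested and 2 were called higher. DHCR7, which catalyzes a last step to cholesterol, had 121 and 123 TPM in NC and 241 and 231 TPM in sh-ANP32B (log2 fold change 0.95, limma adjusted p = 1.17e-04). HSD3B7, which acts on oxysterols on the way to bile acids, had 0.686 and 0.479 TPM against 1.84 and 1.93 TPM (log2 fold change 0.87, limma adjusted p = 0.0229). The call of HSD3B7 was lost without NC replicate 1 (limma adjusted p = 0.059) and without NC replicate 2 (limma adjusted p = 0.0886), and under quantile normalization (limma adjusted p = 0.0945). It passed the filter on low values only through the sh-ANP32B libraries, where it was high, and was not testable without either of them or with 1 TPM required in every library. CYP46A1, which forms an oxysterol LXR ligand, had a log2 fold change of 0.34, inside the fold limit.

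Of 13 other ABC lipid transporters, 10 had no row, 3 were tested and 2 were called higher, against 17.9% of all genes, a count too small to describe the family. ABCA2, a lysosomal lipid transporter, had 12.2 and 11.4 TPM in NC and 22.1 and 22.6 TPM in sh-ANP32B (log2 fold change 0.87, limma adjusted p = 9.77e-04). ABCA3, a phospholipid transporter of lysosome-related organelles, had 17.7 and 17.2 TPM against 26.4 and 26.3 TPM (log2 fold change 0.57, limma adjusted p = 0.00228). Its call ended under median-of-ratios scaling, at 0.48.

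On the side of uptake, where CD36 acts, 7 of 12 lipoprotein and scavenger receptors were tested and 4 were called higher. VLDLR and LRP8, lipoprotein receptors that MYLIP targets, had log2 fold changes of -0.37 and -0.20, inside the fold limit. The scavenger receptors SCARF1 (1.26), CXCL16 (1.24) and MARCO (0.81) were called higher, each from about 1 TPM or less in NC. MARCO lost its call without any 1 of the 4 libraries, at an adjusted p in limma from 0.061 to 0.126. SCARF1 and CXCL16, like CD36 and HSD3B7, were not testable without either sh-ANP32B library, since they then reached 1 TPM in a single library.

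Around PLIN2, 15 of 22 genes of lipid droplets and cholesteryl ester turnover were tested, and 6 were called higher and 1 lower. The largest log2 fold changes among the higher ones were those of LIPA, NCEH1, NPC2 and MGLL. LIPA, the lysosomal acid lipase that frees cholesterol from its esters, had 22.1 and 22.5 TPM in NC and 49.7 and 47.1 TPM in sh-ANP32B (log2 fold change 1.08, limma adjusted p = 2.29e-04). NCEH1, a neutral cholesteryl ester hydrolase, had a log2 fold change of 0.92 and NPC2, which carries cholesterol out of the lysosome, one of 0.76. MGLL, which cleaves monoglycerides, had one of 0.67. PNPLA2 (0.62), the main triglyceride lipase, and BSCL2 (0.60), which helps form droplets, were the others. BSCL2 lost its call without NC replicate 1 (limma adjusted p = 0.101), NC replicate 2 (limma adjusted p = 0.0649) or sh-ANP32B replicate 1 (limma adjusted p = 0.125), and under quantile normalization (limma adjusted p = 0.0965). HILPDA, an inhibitor of PNPLA2, was called lower, with 33.0 and 35.4 TPM in NC and 20.2 and 16.9 TPM in sh-ANP32B (log2 fold change -0.85, limma adjusted p = 0.00188). PLIN3, the other well expressed droplet coat protein, had 87.2 and 95.1 TPM against 64.1 and 68.6 TPM (log2 fold change -0.45). It passed the fold limit, as a lower call, at -0.55 under median-of-ratios scaling, at -0.51 without NC replicate 1 and at -0.50 without sh-ANP32B replicate 2.

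CD36 and PLIN2 are also PPAR targets, and of 10 PPAR receptors and fatty acid genes 7 were tested, with 2 called higher and 1 lower. PPARA had 7.37 and 5.21 TPM in NC and 12.4 and 12.6 TPM in sh-ANP32B (log2 fold change 0.90, limma adjusted p = 0.00865). PPARG, the PPAR that is best known for inducing CD36 in macrophages, had 19.4 and 16.2 TPM against 12.6 and 15.2 TPM (log2 fold change -0.34, limma adjusted p = 0.0922). FABP5, a fatty acid carrier, was called lower at -0.83 (limma adjusted p = 1.79e-04). In the SREBP2 arm, which makes sterols, 7 of 15 genes were called higher and none lower, against 17.9% and 10.1% of all genes. The largest log2 fold changes were those of LSS (1.20), MVD (1.10), HMGCS1 (0.91) and INSIG1 (0.88), while SREBF2 itself had one of 0.16. The 8 genes of this arm that were not called included SQLE (0.08), PMVK (-0.03), CYP51A1 (-0.19) and INSIG2 (-0.39). ABCA7 has been tied to this arm, and any link between them here was not tested.

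**Figure D3:**
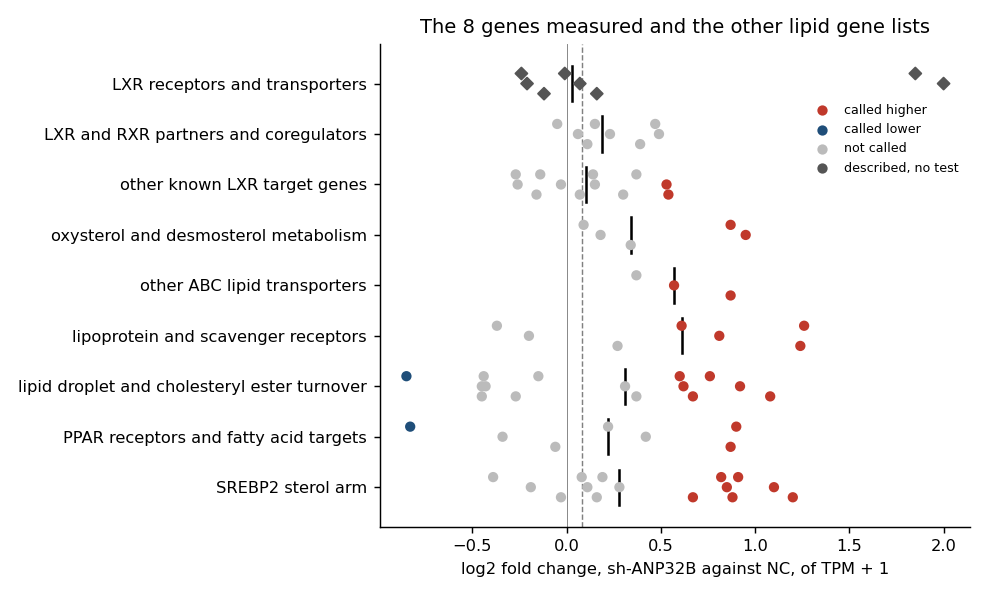
Log2 fold change (sh-ANP32B against NC) of the 8 genes measured, as diamonds in the top row, and of the 72 tested genes of the 8 lists, as circles (red called higher, blue called lower, grey not called), with a black line at each median and a dashed line at the median of all genes, 0.08. ABCA7 and CD36 lie to the right of every listed gene, and the calls of the lists are 25 higher and 2 lower.

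The difference of ABCA7 was set beside those of the genes around it. Its nearest tested neighbours were CNN2, 928 bases before it, and ARHGAP45, 350 bases after it. CNN2, a calponin, had 144 and 151 TPM in NC and 190 and 173 TPM in sh-ANP32B (log2 fold change 0.30, limma adjusted p = 0.0100). ARHGAP45, a GTPase-activating protein of blood cells, had 110 and 117 TPM against 140 and 139 TPM (log2 fold change 0.30, limma adjusted p = 0.00461). Neither passed the fold limit. Within 100 kb on either side, a window chosen after the values were seen, 9 genes were tested besides ABCA7. Their log2 fold changes ran from -0.63 for POLR2E, an RNA polymerase subunit that passed the limits for a lower call, to 0.37 for SBNO2, all below that of ABCA7.

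**Figure D4:**
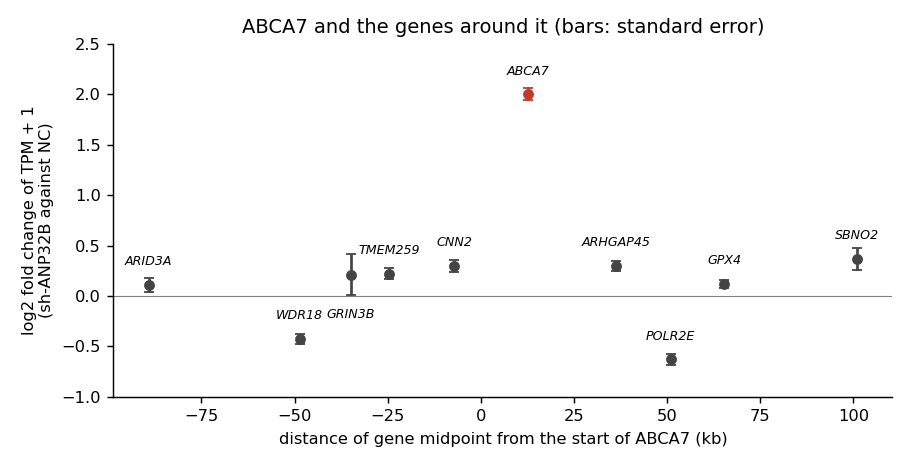
Log2 fold change (sh-ANP32B against NC) with its SE for ABCA7 and the 9 tested genes within 100 kb, placed by the distance of the gene's midpoint from the start of ABCA7. ABCA7 is at 2.00 and the others lie between -0.63 and 0.37.

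Across the 8 genes, 16 nearest neighbours were tested, 1 on each side, and 3 were called higher and 3 lower, against 17.9% and 10.1% of all genes. TOMM40, 2101 bases from APOE, was called lower, with 164 and 165 TPM in NC and 97.8 and 98.7 TPM in sh-ANP32B (log2 fold change -0.74, limma adjusted p = 1.82e-04). On the other side of APOE, the read-through gene APOC4-APOC2 was called higher, with 1.02 and 1.53 TPM against 3.53 and 4.13 TPM (log2 fold change 1.09, limma adjusted p = 0.00949). This call was lost without sh-ANP32B replicate 2 (limma adjusted p = 0.0505). ACP2, which overlaps NR1H3, was called higher at 0.59 (limma adjusted p = 0.0368), and its call was lost without NC replicate 1 (limma adjusted p = 0.105), sh-ANP32B replicate 1 (limma adjusted p = 0.119) or sh-ANP32B replicate 2 (limma adjusted p = 0.0642). It was also lost under median-of-ratios scaling (limma adjusted p = 0.0532) and quantile normalization (limma adjusted p = 0.0766). FCN1, the nearest tested gene beyond RXRA but 462646 bases away, was called higher, and was not testable without either sh-ANP32B library. HAUS6 (-0.63), 5470 bases from PLIN2, and ZNF473 (-0.87), 276238 bases from NR1H2, were called lower. A nearest tested gene was thus not always close, and DMTF1 lay 6473131 bases from CD36.

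Markers of monocytes and macrophages, cells in which CD36 and the LXR targets are typically expressed, moved with ABCA7 and CD36. Of 15 such markers, 8 had a row and 7 were called higher, against 17.9% of all genes. CSF1R was not called, at a log2 fold change of 0.56 (limma adjusted p = 0.0828). The median over the 8 was 2.45 on the log2 scale. Their summed level was 516 to 521 TPM in NC and 5558 to 5616 TPM in sh-ANP32B, most of it LYZ. CD68 had 39.8 and 40.1 TPM in NC and 220 and 214 TPM in sh-ANP32B (log2 fold change 2.41, limma adjusted p = 2.89e-05), and C1QA was listed at 0 in 1 NC library. CD14, FCGR3A, VCAN, CD163, MRC1, C1QB and C1QC had no row. Of 8 markers of myeloid leukemia cells, 6 had a row, with a summed level of 580 to 585 TPM in NC and 554 to 562 TPM in sh-ANP32B. Only MEIS1 among them was called, lower at -0.61 (limma adjusted p = 0.00138), where 10.1% of all genes were called lower. None of the erythroid or fibroblast markers had a row. The part of these markers in the levels of ABCA7 and CD36 was not tested. In bulk libraries, a change in RNA per cell and a change in the share of cells that hold it cannot be told apart.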

How the data were processed

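RNA was extracted with Trizol and libraries were made with the Illumina TruSeq kit, per the labels. Per the submitters' processing notes and the methods, the authors aligned reads with HISAT2 (2.0.5) to hg38. The deposited table holds 1 value per gene and library, read here as TPM from the values, which total 997271 to 998546 in every library. The quantifier, annotation and strand setting are not given in the sources used here. The lowest mean of any gene listed is 0.500 TPM.

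Symbols and positions came from GENCODE version 44 on hg38, and 14961 of 18885 identifiers had a symbol. Groups were compared with limma (3.58.1 in R 4.3.3, lmFit and eBayes with trend) on log2(TPM + 1), over genes that reached 1 TPM in 2 or more libraries, in place of the count test of the methods, since TPM are not counts. With 2 libraries per group, an adjusted p rests on variance shared across genes. The fit was also run on simulated data, and its outcome there is not reported here. The genes and lists were chosen with earlier results of these data known. Named besides them are, per list, up to 4 called genes with the largest change in each direction, and the nearest neighbours. Other genes named, such as NCOA3, SREBF1, PPARG and PLIN3, were chosen after their values were seen. Some genes counted in the lists are not reported here by name. Alternatives were the replicate block, 2 other filters, a pseudocount of 0.1, 2 scalings, 2 call rules and each library left out. Python 3.11.15 made the tables and plots.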

Additional observations from a re-analysis of the deposited data

How the results depend on the processing

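The log2 fold changes of ABCA7 (1.90 to 2.07) and CD36 (1.55 to 3.07) kept their sign under every alternative that gave a value, whereas those of the other 6 genes stayed within 0.5 of 0. CD36 could not be fitted with at least 1 TPM required in every library or without either sh-ANP32B library. Median-of-ratios scaling moved NR1H2 to -0.03, RXRA to -0.10, ABCA7 to 1.90, MYLIP to -0.22 and PLIN2 to -0.31. Quantile normalization moved NR1H3 to -0.46, APOE to -0.11 and CD36 to 1.55, and a pseudocount of 0.1 moved CD36 to 3.07. Each moved by more than the spread between replicates, and the scalings also moved the median of all genes from 0.08 to -0.01 and -0.04. Lower genes were 36.1% of all calls as deposited, 49.0% with median-of-ratios scaling and 50.2% with quantile normalization. A fold limit of 1 left 1136 of 3024 higher and 273 of 1712 lower calls over all genes, 5 of 25 higher and 0 of 2 lower calls in the lists, and 0 of 3 lower calls among the neighbours, since it asks for a larger change. Lower calls in the lists rose from 2 to 5 with median-of-ratios scaling and to 4 with quantile normalization. With 1 library left out in turn, they ranged from 2 to 4, and higher calls among the neighbours from 0 to 3, with fewer genes tested. The replicate numbers were not shown to pair the libraries, as the deviations of same-numbered libraries correlated at -0.0232. With the replicate block, 2853 genes were called higher and 1671 lower, and the lists held 24 higher and 2 lower calls, SMPDL3A being the one lost (adjusted p = 0.0635 from limma). Among the neighbours, the block left 2 of 3 higher calls, ACP2 being lost (adjusted p = 0.0568 from limma), and 3 lower calls. Promoter matches of the DR4 ranged from 0 of 9 genes with 1 mismatch allowed to 2 with 3. Depth is unknown, so low genes such as CD36, APOE and NR1H3 carry a counting error that cannot be given.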

Other observations

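Some markers of other blood cells also differed, in genes that the lists above do not hold. CD2, a T cell marker, had 0.521 and 0.442 TPM against 3.62 and 3.63 TPM (log2 fold change 1.64, adjusted p = 0.00172 from limma), while CD3D, CD3E and CD3G had no row. CD2 reached 1 TPM only in the sh-ANP32B libraries. CD22, a B cell marker, was called higher at 0.76 (adjusted p = 0.0453 from limma).

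The genes whose levels over the 4 libraries lay nearest to those of ABCA7, by Euclidean distance of log2(TPM + 1) over 16936 genes, were ERV3-1 (0.199), P2RX1 (0.308) and NABP1 (0.447). ABCA7 was added to this search after its values were seen. P2RX1, an ATP-gated ion channel of blood cells, had 41.2 and 43.4 TPM in NC and 139.2 and 139.5 TPM in sh-ANP32B. For NR1H3 they were LINC01291 (0.0859), USP2-AS1 (0.112) and BDP1 (0.135). With 4 libraries in 2 groups, such nearness describes level and difference and nothing more.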
